A study of Mus musculus with 18 samples.

Results

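The gene of the transcription factor p53, Trp53, and its best known target genes, 32 genes in all, were followed in mouse mammary epithelial organoids treated with Torin 1 or with estradiol. The genes were chosen by symbol, from what is known of p53, but with earlier results of these data already known. Comparisons of the set with all tested genes are therefore descriptive. All 32 had a row among the 56893 gene rows of the Torin experiment and the 56691 gene rows of the estradiol experiment, and all 32 passed the filter on low counts, which left 18112 and 15358 genes to be tested. By role, 2 genes belong to the core loop (Trp53 and Mdm2), 7 to cell cycle arrest, 13 to cell death, 5 to DNA repair and 5 to metabolism.

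p53 is held at a low level in unstressed cells by Mdm2, a ubiquitin ligase that marks it for destruction and whose own gene is activated by p53. DNA damage, nucleolar stress or oncogene activity frees p53, which then binds paired short sites in DNA and raises genes that stop the cell cycle, kill the cell, repair DNA or adjust metabolism. p53 is regulated mostly as a protein, so the mRNA of its targets is commonly used as a readout of its activity, although most targets also answer to other factors. In the mammary gland p53 is known as a suppressor of tumors and as a brake on stem-like cells.

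Organoids were grown from mammary epithelial cells of nulliparous wild type C57BL/6 mice, and polyadenylated RNA was sequenced from 18 libraries, 3 per group. In the Torin experiment, organoids of mice of about 15 weeks received 100 nM Torin 1, a compound that blocks the kinase mTOR in both of its complexes, or its solvent DMSO, and all were collected after 18 days of culture. Its arms, D6 and D12, give 4 groups: Torin D6, DMSO D6, Torin D12 and DMSO D12. In the estradiol experiment, organoids of mice of about 24 weeks received 10 nM estradiol, the main ovarian estrogen, or its solvent ethanol for 11 days, and were collected after 12 days of culture. All groups were kept in EpiCult-B medium, with serum on the first day, and those of the Torin experiment in Matrigel. By the sample titles D6 libraries were treated for 6 days and D12 libraries for 12, and the batch tag repeats these day numbers. The design text states the reverse, 12 days in D6 and 6 in D12. Length of treatment, its start in culture and any batch cannot be told apart, and the arms are called by their names only. The design text speaks of 3 glands from 3 mice, but no label ties a library to a mouse, so the error behind every p-value is that among the sequenced libraries, which may be technical.

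Among the 24 genes with a RefSeq promoter window (250 bases before to 50 bases after the start of transcription, build GRCm38.p6), 7 held a p53 full site, meaning 2 adjoining copies of the p53 decamer with no spacer, at most 3 mismatches over the 20 bases and none in the C and G of each core. Of all 27025 mouse genes with such a window, 1.63% held one. The motif reads the same on both strands, so a single search covers both. The 7 sites are shown so that the values of these genes can be read beside their promoter sequence. Those of Trp53 and Sesn1 belong to genes that moved the same way in both Torin arms. The other 5 were added after their values were seen. They are printed on the strand of the gene, with the C and G of the cores in capitals.
Cdkn1a, chr17:29090928-29090947, plus strand, 1 mismatch: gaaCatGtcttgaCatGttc
Ccng1, chr11:40755462-40755481, minus strand, 1 mismatch: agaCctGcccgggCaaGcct
Aen, chr7:78895937-78895956, plus strand, 3 mismatches: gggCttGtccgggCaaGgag
Bbc3, chr7:16309486-16309505, plus strand, 3 mismatches: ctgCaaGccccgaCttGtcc
Trp53, chr11:69580284-69580303, plus strand, 3 mismatches: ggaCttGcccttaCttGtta
Sesn1, chr10:41887266-41887285, plus strand, 3 mismatches: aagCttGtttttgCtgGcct
Tigar, chr6:127109746-127109765, minus strand, 3 mismatches: ggtCtaGctctggCaaGact
The sites of Cdkn1a and Ccng1 were the closest to the consensus. A match is a description of these letters and no sign that p53 was bound there.

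The 250 bases before the start are given whole for the 2 genes that moved the same way in both arms and hold a site, with the site in capitals.
Trp53, chr11:69580109-69580358, plus strand: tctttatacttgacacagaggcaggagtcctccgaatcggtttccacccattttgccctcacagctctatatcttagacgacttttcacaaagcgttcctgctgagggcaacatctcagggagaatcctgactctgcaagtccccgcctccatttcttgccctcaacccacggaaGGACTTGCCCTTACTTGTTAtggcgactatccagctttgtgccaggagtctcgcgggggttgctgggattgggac
Sesn1, chr10:41887189-41887438, plus strand: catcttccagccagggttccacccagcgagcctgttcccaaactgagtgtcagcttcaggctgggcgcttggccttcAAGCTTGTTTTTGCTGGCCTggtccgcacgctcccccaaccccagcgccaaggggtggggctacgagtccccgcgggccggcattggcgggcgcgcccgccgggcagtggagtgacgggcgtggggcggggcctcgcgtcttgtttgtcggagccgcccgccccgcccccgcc
The site lies 75 to 56 bases before the start in Trp53 and 173 to 154 bases before it in Sesn1, counting the base next to the start as the first. A second RefSeq start of Sesn1 had no full site in its window, nor had a second start of Cdkn1a or the other starts of Bbc3.

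Libraries held 23239364 to 28910688 counts in the Torin experiment and 20637473 to 24312079 in the estradiol experiment. Replicates varied more in the Torin experiment, where the biological coefficient of variation was 20.2%, than in the estradiol experiment, where it was 5.27%. That spread was uneven. A chi-square per degree of freedom, larger where 2 libraries of a group differ more, was 99.5 and 121 for pairs with the third Torin D6 library. It was 41.6 and 45.2 for pairs with the third Torin D12 library. Other pairs gave 6.57 to 13.4 in the Torin experiment and 3.52 to 18.8 in the estradiol experiment. The third Torin D6 library stood apart: 404 tested genes were at least 4-fold above both other Torin D6 libraries in it, against 0 to 5 genes in each of the other 17 libraries. Results that rest on it are given with and without it. Summed luminal markers (9 genes) stood at 8183 to 9751 CPM (counts relative to the scaled library total) in Torin D6, 5993 to 7198 in DMSO D6, 5059 to 6244 in Torin D12, 7171 to 7643 in DMSO D12, 5089 to 5217 in estradiol and 5227 to 5461 in ethanol libraries. Basal markers (7 genes) summed to 1622 to 2053 CPM in Torin D6, 2364 to 2772 in DMSO D6, 1720 to 2277 in Torin D12, 3210 to 3402 in DMSO D12, 8547 to 9038 in estradiol and 8218 to 8740 in ethanol libraries, so both epithelial types were present throughout. Single markers did not all move with the sums. Of the 9 luminal markers 3 rose and 5 fell in D6, and 6 fell in D12. Of the 7 basal markers 2 rose and 1 fell in D6, and 2 rose and 3 fell in D12. Fibroblast markers (8 genes, none at 0) summed to 284 to 317 CPM in Torin D6 and 894 to 1249 in DMSO D6, where all 8 fell. They summed to 723 to 1032 CPM in Torin D12 and 898 to 1039 in DMSO D12, with 1 rise and 2 falls, and to 393 to 467 in estradiol and 298 to 325 in ethanol, with 5 rises and 1 fall. Of 8 immune markers Cd3e and Adgre1 were at 0 throughout the Torin experiment, and of 5 adipocyte markers Lep was at 0 throughout the Torin experiment. Immune markers summed to 1.73 to 2.25 CPM in Torin D6, 6.38 to 11.7 in DMSO D6, 2.08 to 2.34 in Torin D12, 8.04 to 12.1 in DMSO D12, 2.07 to 3.06 in estradiol and 2.48 to 3.89 in ethanol libraries. In the Torin experiment 7 of the 8 immune markers, all but Cd68, were under 1 CPM in every library. The 5 adipocyte markers were under 1 CPM in every library, as were 4 of 5 endothelial markers (all but Pecam1), whose sum lay between 4.11 and 14.1 CPM over all libraries. The part of these shifts in the values below was not tested, and in RNA of whole organoids fewer cells of a type and less RNA per cell cannot be told apart.

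Torin raised more than it lowered of the p53 set in the D6 arm and lowered more than it raised in the D12 arm. Of the 32 genes, 18 rose and 2 fell in D6 (adjusted p under 0.05 in edgeR's quasi-likelihood test), where 19.8% of all tested genes rose and 19.3% fell. In D12, 2 rose and 13 fell, where 10.8% of all tested genes rose and 14.6% fell. The median log2 fold change of the set was 0.44 in D6, against 0.05 over all genes, and −0.19 in D12, against 0.01 over all genes. Estradiol raised 13 and lowered 4, where 17.4% of all tested genes rose and 16.6% fell, with a median log2 fold change of 0.12, against −0.01 over all genes. Torin libraries lay wholly above DMSO for 19 of the genes and wholly below for 3 in D6, where 24.2% and 24.3% of all tested genes did, and for 2 and 17 in D12, where 20.7% and 23% did. Estradiol libraries lay wholly above ethanol for 15 and wholly below for 3, where 23.6% and 22.8% of all tested genes did. The counts moved with single libraries left out. In D6 there were 11 rises without the third DMSO D6 library, and 1 fall without the second Torin D6, the first DMSO D6 or the second DMSO D6 library. In D12 there was 1 rise without the third Torin D12, the second DMSO D12 or the third DMSO D12 library, and there were 4 rises when the third Torin D6 library was left out of the fit. With estradiol there were 2 falls without the second estradiol or the first ethanol library. The changes with estradiol were small: the largest rise of a called gene was that of Tigar, at a log2 fold change of 0.57.

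Each gene was placed by its calls in the arms. Trp53 and Bax rose in both. Ccng1, Cdkn1a, Eda2r, Ephx1, Perp and Psrc1 rose in D6 and fell in D12. Aen, Bbc3, Ei24, Ercc5, Mdm2, Phlda3, Pidd1, Tigar, Tnfrsf10b and Zmat3 rose in D6 and were not called in D12. Btg2, Gdf15, Pmaip1, Polk and Trp53inp1 fell in D12 and were not called in D6. Ddb2 and Sesn1 fell in both, and Apaf1, Fas, Fdxr, Plk2, Plk3, Rrm2b and Xpc were called in neither.

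**Figure D1:**
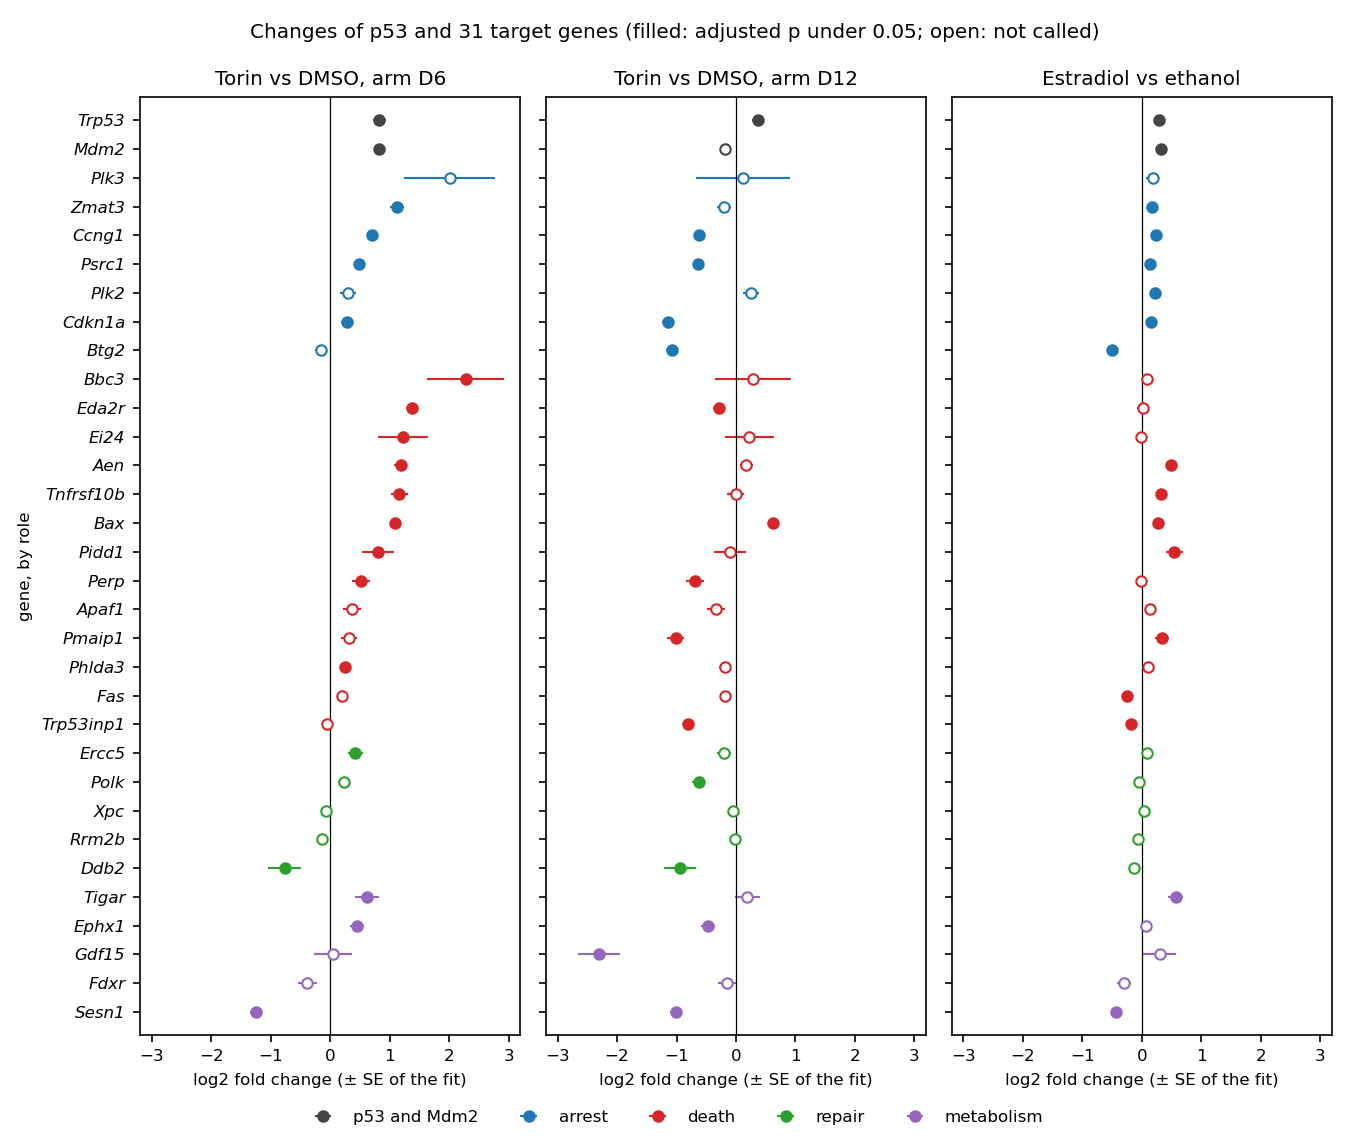
Log2 fold change (x axis, ± SE of the fit) of each of the 32 genes (y axis, by role) for Torin against DMSO in arms D6 and D12 and for estradiol against ethanol; filled points passed an adjusted p of 0.05. Most points lie right of 0 in D6 (18 rises, 2 falls) and many left of it in D12 (2 rises, 13 falls), while those of estradiol lie close to 0.

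The test of the arms against each other asks whether the Torin effect itself differed. The effect was lower in D12 than in D6 for 19 of the 32 genes and higher for none, where 5.55% of all tested genes were lower and 5.03% higher. At an unadjusted p under 0.05 the count was 23, and DESeq2 likewise found none higher. The difference of effects was below 0 for 28 of the 32 genes, with a median log2 of −0.91, against −0.03 over all genes. By role, 1 of 2 genes of the core loop, 5 of 7 of arrest, 9 of 13 of death, 2 of 5 of repair and 2 of 5 of metabolism were lower in D12. The arms have separate DMSO libraries, and none of the 32 genes passed the test between DMSO D12 and DMSO D6 in edgeR or DESeq2, where 0% of tested genes were called higher and 0.00552% lower in D12. DMSO D12 libraries lay wholly above DMSO D6 for 3 of the genes and wholly below for none, where 6.74% and 5.41% of all tested genes did. In that comparison log2 differences ran from −0.37 to 0.44, and 1 gene, Pmaip1, had an unadjusted p under 0.05 in either tool.

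**Figure D2:**
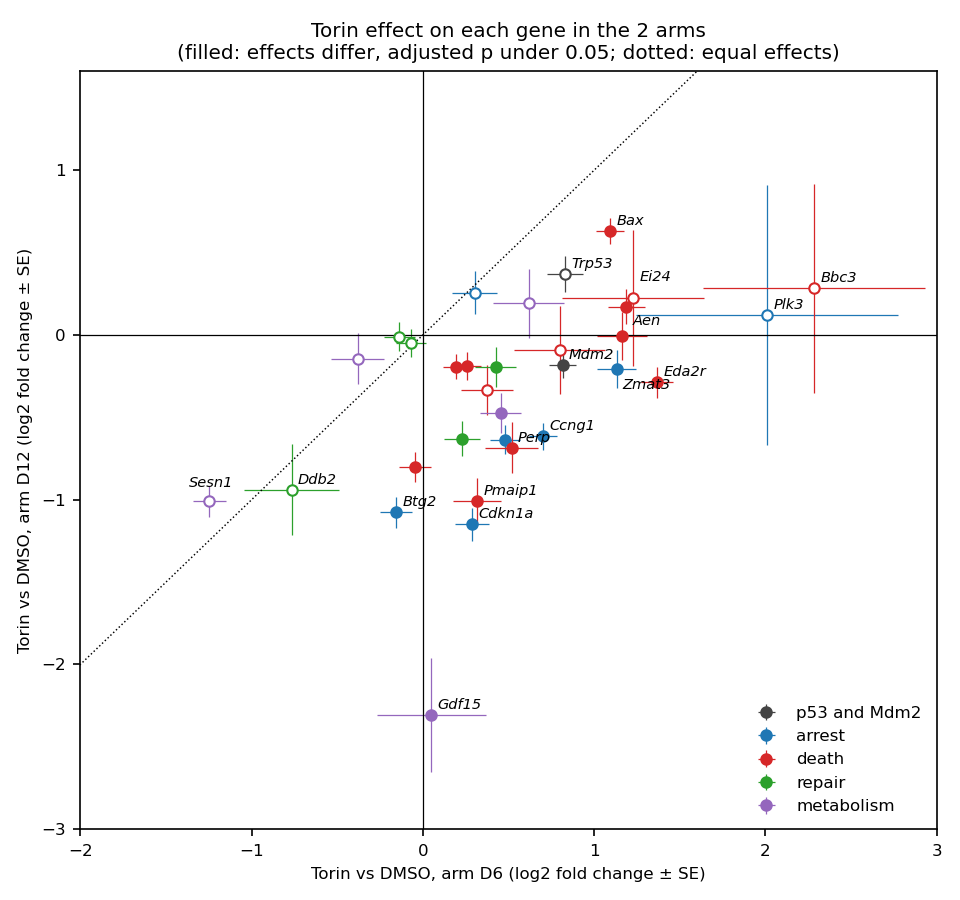
Torin effect on each gene in arm D12 (y axis, log2 fold change ± SE) against that in arm D6 (x axis, log2 fold change ± SE); filled points are the 19 genes whose effects differed between the arms, and the dotted line marks equal effects. Of the 32 genes 28 lie below that line; Eda2r, Zmat3, Ccng1, Cdkn1a and Gdf15 lie far below it, and Sesn1 and Ddb2 near it.

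Trp53 mRNA rose in both arms and with estradiol. It stood at 115, 107 and 135 CPM in Torin D6 libraries, against 64.3, 69.7 and 66.7 CPM in DMSO D6 libraries, and at 89.0, 81.8 and 105 CPM in Torin D12 libraries, against 75.1, 72.9 and 65.2 CPM in DMSO D12 libraries. In each arm every Torin library was above every DMSO library. The log2 fold change was 0.83 ± 0.11 (SE) in D6, with an adjusted p of 8.88e-05, and 0.37 ± 0.11 in D12, with an adjusted p of 0.0252. The D12 call was lost without the third Torin D12 or the second or the third DMSO D12 library (0.26 to 0.39). The difference between the arms was −0.46 ± 0.15 and was not called (adjusted p = 0.0787), but it passed without the second Torin D6 library (−0.53) or the third Torin D12 library (−0.56). With estradiol Trp53 stood at 121, 119.8 and 118 CPM, against 93.7, 94.2 and 104 CPM with ethanol, and the groups did not overlap (log2 fold change 0.30 ± 0.05, adjusted p = 2.33e-04).

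Mdm2, the gene of the ligase that degrades p53, was high in Torin D6 alone among the Torin and DMSO groups. Torin D6 libraries held 177, 182 and 166 CPM, against 101.3, 96.6 and 100.7 CPM in DMSO D6 libraries. Torin D12 libraries held 82.1, 82.8 and 98.6 CPM, against 98.5, 101.3 and 99.6 CPM in DMSO D12 libraries. The groups lay far apart in D6 and overlapped in D12. Mdm2 rose in D6 (log2 fold change 0.82 ± 0.08, adjusted p = 7.95e-06) and was not called in D12 (−0.18 ± 0.08, adjusted p = 0.105). Without the third Torin D12 library, the highest of the 3, the D12 value was −0.28 and passed. The Torin effect was lower in D12 than in D6, with a difference of −1.0 ± 0.11. With estradiol it rose to 84.9, 88.8 and 88.4 CPM, against 71.7, 65.7 and 71.9 CPM with ethanol, a log2 fold change of 0.33 ± 0.05 without overlap.

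**Figure D3:**
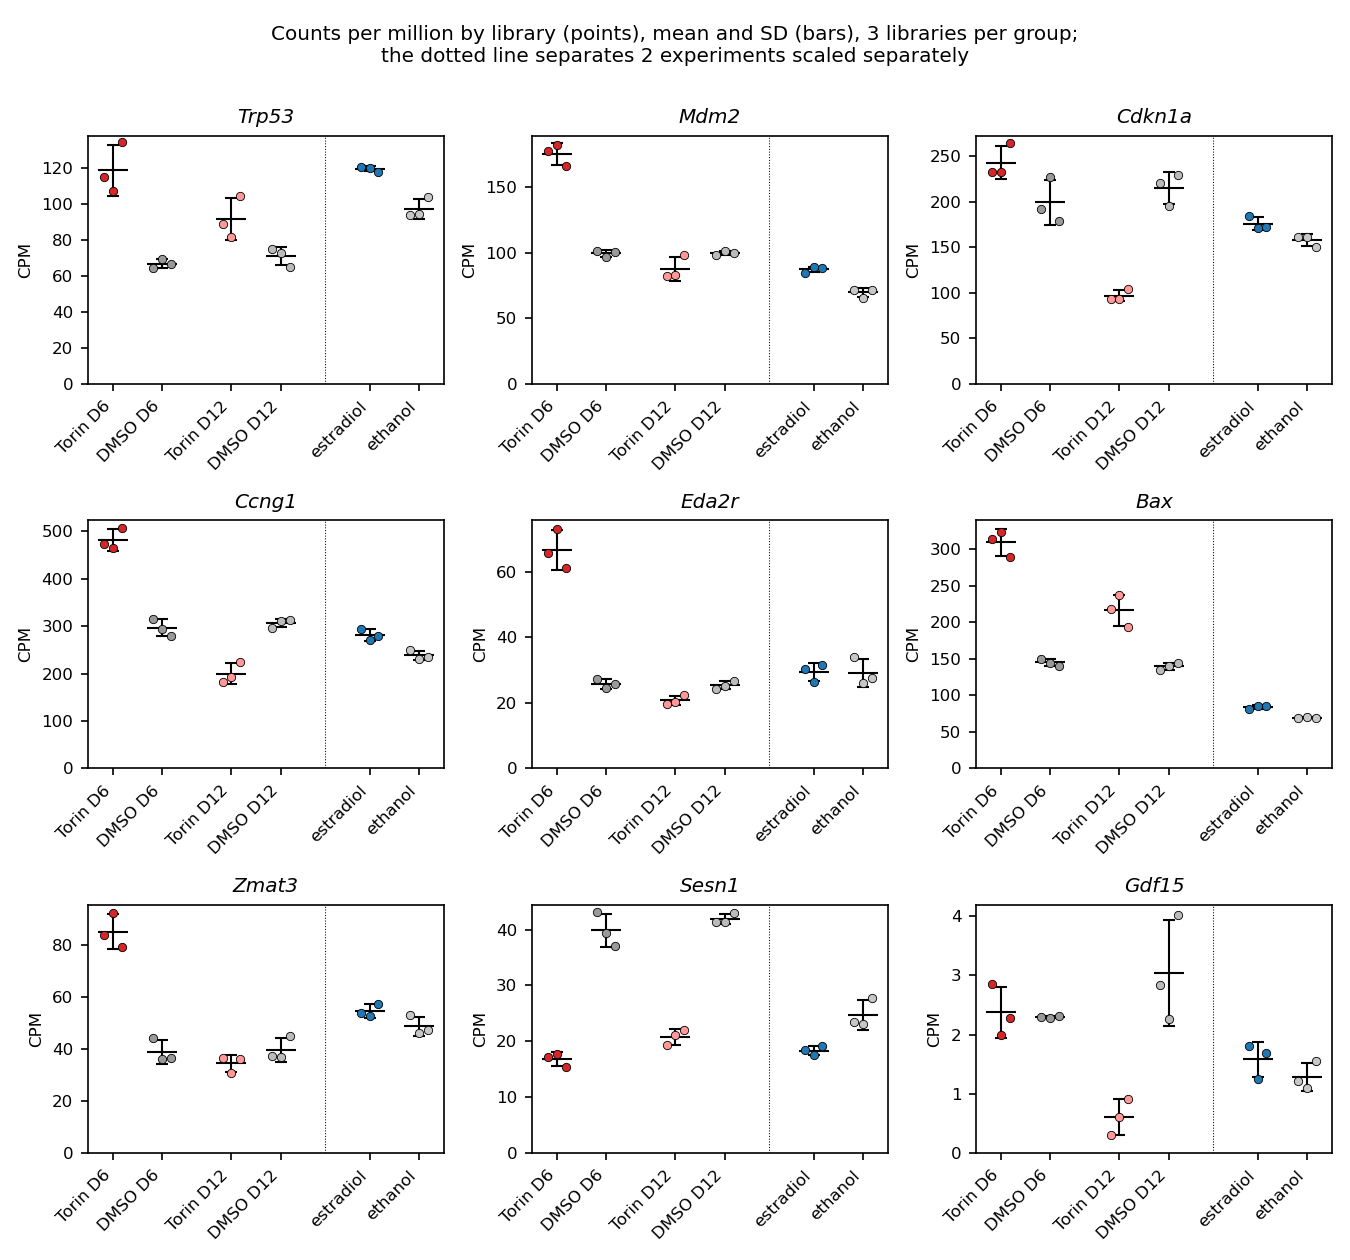
CPM (y axis) of 9 genes in every library (points, replicates 1 to 3 from left to right within a group), with the mean and SD of 3 libraries (bars); the dotted line separates experiments that were scaled separately. Mdm2, Ccng1, Eda2r and Zmat3 stand above DMSO in Torin D6 and at or below it in Torin D12, Trp53 and Bax stand above DMSO in both arms, and Sesn1 stands below it in both.

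Among the 7 arrest genes, 4 rose in D6 and none fell, 4 fell in D12 and none rose, and 5 rose and 1 fell with estradiol. With DESeq2, 3 rose in D6, 4 fell in D12, and 3 rose and 1 fell with estradiol. Over all tested genes 19.8% rose and 19.3% fell in D6, 10.8% and 14.6% in D12, and 17.4% and 16.6% with estradiol. In neither arm did an arrest gene pass in the other direction with DESeq2 or at an unadjusted p under 0.05. Cdkn1a encodes p21, the inhibitor of cyclin-dependent kinases through which p53 stops the cell cycle. It held 233, 232 and 264 CPM in Torin D6, against 192, 227 and 179 CPM in DMSO D6, so the lowest Torin library lay just above the highest DMSO library. In D12 the gap ran the other way and was wide, with 93.6, 92.9 and 104 CPM in Torin libraries, against 220.5, 196 and 229 CPM in DMSO libraries. Its rise in D6 was slight (log2 fold change 0.29 ± 0.10, adjusted p = 0.0405) and its fall in D12 large (−1.15 ± 0.10, adjusted p = 1.25e-05). The D6 call was lost in 5 of 7 other settings of the test and without the first or the third Torin D6 or the first or the third DMSO D6 library (0.21 to 0.31). The call in D12 and the lower effect in D12 than in D6 (−1.43 ± 0.14) held in every alternative at the threshold of 0.05. Estradiol libraries held 184, 172 and 172 CPM, against 162, 161 and 150.1 CPM in ethanol libraries, a rise of 0.16 ± 0.05 that was lost without the first estradiol or the third ethanol library (0.13). It was also lost in 1 of 6 other settings of the test, limma on the deposited signal.

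Ccng1, the gene of cyclin G1, which brings a phosphatase to Mdm2, showed the same reversal between arms. It held 473, 465 and 507 CPM in Torin D6, against 315, 295 and 279 CPM in DMSO D6, and 183, 192 and 225 CPM in Torin D12, against 297, 309.9 and 313 CPM in DMSO D12. No Torin library overlapped the DMSO libraries of its arm, and the sign differed. The log2 fold change was 0.70 ± 0.08 in D6 (adjusted p = 4.66e-05) and −0.62 ± 0.08 in D12 (adjusted p = 2.69e-04), and the difference was −1.32 ± 0.12. With estradiol it held 294, 271 and 279.9 CPM, against 249.9, 231 and 234 CPM with ethanol, a rise of 0.24 ± 0.05 with no overlap.

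Psrc1, which encodes a spindle-associated protein, and Zmat3, which encodes an RNA-binding zinc finger protein, also rose in D6. Psrc1 held 115, 108 and 95.2 CPM in Torin D6, against 77.9, 77.7 and 73.1 CPM in DMSO D6, and 45.8, 50.2 and 53.3 CPM in Torin D12, against 72.5, 77.8 and 81.9 CPM in DMSO D12. Its groups did not overlap in either arm, above DMSO in D6 (0.48 ± 0.09) and below it in D12 (−0.64 ± 0.09). Zmat3 held 83.7, 92.5 and 79.1 CPM in Torin D6, against 44.1, 36.1 and 36.4 CPM in DMSO D6, and 36.5, 30.6 and 36.0 CPM in Torin D12, against 37.2, 36.9 and 44.9 CPM in DMSO D12. The D6 groups of Zmat3 lay far apart (1.13 ± 0.12, adjusted p = 1.42e-05), while those of D12 lay close without overlapping and were not called (−0.20 ± 0.12, adjusted p = 0.228). With estradiol Psrc1 held 74.6, 80.2 and 84.8 CPM, against 74.5, 73.4 and 68.4 CPM with ethanol, and Zmat3 held 53.7, 52.6 and 57.5 CPM, against 52.9, 46.0 and 47.2 CPM with ethanol. Both passed the test there, at 0.15 ± 0.05 and 0.16 ± 0.06, although the Zmat3 groups overlapped. The Psrc1 call was lost without the second or the third estradiol or the second or the third ethanol library (0.10 to 0.16), and the Zmat3 call without the first or the third estradiol or the second or the third ethanol library (0.13 to 0.18). Psrc1 was also lost in 3 of 6 other settings of the test and Zmat3 in 2 of 6, DESeq2 and limma among them for each.

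Btg2, an antiproliferative gene whose protein recruits an mRNA deadenylase, was not called in D6 and fell in D12 and with estradiol. Torin D6 libraries held 187, 177 and 149 CPM, against 178, 205 and 188 CPM in DMSO D6 libraries, and overlapped them (−0.16 ± 0.09, adjusted p = 0.213). Torin D12 libraries held 94.1, 99.6 and 90.3 CPM, against 202, 184 and 214 CPM in DMSO D12 libraries, all of them lower (−1.08 ± 0.10, adjusted p = 1.29e-05). Estradiol libraries held 53.2, 56.5 and 54.1 CPM, against 81.3, 80.7 and 68.2 CPM in ethanol libraries, and the groups did not overlap (−0.49 ± 0.06, adjusted p = 2.22e-05). Plk2, a polo-like kinase of the stress response, held 1454, 1672 and 1189.8 CPM in Torin D6, against 1191, 1182 and 1128 CPM in DMSO D6, and 1437, 1456 and 1122 CPM in Torin D12, against 1093, 1039 and 1229 CPM in DMSO D12. It overlapped DMSO in both arms and was called in neither (0.30 ± 0.13 in D6 and 0.26 ± 0.13 in D12), although it passed in D6 without the third Torin D6 library (0.41). With estradiol it rose to 313, 316 and 305 CPM, against 273, 266 and 259.9 CPM with ethanol (0.23 ± 0.04).

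Of the 13 death genes, 9 rose in D6 and none fell (also none with DESeq2 or at an unadjusted p under 0.05), with a median log2 fold change of 0.80, against 0.05 over all genes. In D12, 1 rose and 4 fell, with a median of −0.19, against 0.01 over all genes. With estradiol 5 rose and 2 fell (4 and 1 with DESeq2). The shares of all tested genes that rose and fell were 19.8% and 19.3% in D6, 10.8% and 14.6% in D12, and 17.4% and 16.6% with estradiol. Eda2r, the gene of a receptor for ectodysplasin A2, held 65.8, 73.1 and 61.0 CPM in Torin D6, against 27.2, 24.4 and 25.8 CPM in DMSO D6, and 19.7, 20.3 and 22.4 CPM in Torin D12, against 24.3, 25.2 and 26.7 CPM in DMSO D12. Torin libraries stood well above DMSO in D6 (1.37 ± 0.09, adjusted p = 5.92e-07) and slightly below it in D12 (−0.29 ± 0.09, adjusted p = 0.0409), without overlap in either. The D12 call was lost in 4 of 8 other settings and without the first or the second Torin D12 or the first, the second or the third DMSO D12 library (−0.32 to −0.25), while the difference between arms, −1.66 ± 0.13, held in every alternative at the threshold of 0.05. Its death receptor relative Tnfrsf10b, the mouse receptor for TRAIL, held 54.1, 62.8 and 53.8 CPM in Torin D6, against 25.2, 27.3 and 23.9 CPM in DMSO D6, and 29.4, 27.1 and 22.1 CPM in Torin D12, against 24.4, 22.4 and 32.2 CPM in DMSO D12. It rose in D6 (1.16 ± 0.15) and overlapped DMSO in D12. With estradiol Tnfrsf10b held 29.2, 31.1 and 30.9 CPM, against 26.3, 23.3 and 22.9 CPM with ethanol, a rise of 0.33 ± 0.07. Eda2r held 30.4, 26.3 and 31.5 CPM with estradiol, against 33.8, 26.0 and 27.5 CPM with ethanol, and the groups overlapped (adjusted p = 0.922).

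Bax, the gene of a protein that opens the outer membrane of mitochondria, was the death gene that rose in both arms and with estradiol. It held 315, 324 and 289 CPM in Torin D6, against 150.3, 145 and 140.3 CPM in DMSO D6, and 218, 237 and 194 CPM in Torin D12, against 135, 139.9 and 144 CPM in DMSO D12. Every Torin library was above every DMSO library of its arm, by more in D6 (1.09 ± 0.08) than in D12 (0.63 ± 0.08). The difference of −0.46 ± 0.11 had an adjusted p of 0.0224 and was lost without the first Torin D6, the third DMSO D6, the first Torin D12 or the second or the third DMSO D12 library (−0.46 to −0.42). Estradiol libraries held 81.6, 85.9 and 85.8 CPM, against 69.1, 70.2 and 69.7 CPM in ethanol libraries, a rise of 0.28 ± 0.04 without overlap. Aen, the gene of an exonuclease that cuts DNA in dying cells, held 137, 145 and 129 CPM in Torin D6, against 61.9, 63.2 and 55.5 CPM in DMSO D6, and 72.8, 69.4 and 77.7 CPM in Torin D12, against 66.8, 54.1 and 74.2 CPM in DMSO D12. It rose in D6 (1.19 ± 0.11, adjusted p = 5.97e-06), and its D12 groups overlapped (0.17 ± 0.11). With estradiol Aen held 59.3, 63.9 and 64.0 CPM, against 45.6, 43.4 and 43.9 CPM with ethanol, a rise of 0.49 ± 0.05 (adjusted p = 2.51e-06), the lowest p among the 32 genes in that experiment.

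Pmaip1 and Trp53inp1 fell in D12 alone among the Torin arms. Pmaip1, the gene of the death promoter Noxa, held 19.3, 23.3 and 21.8 CPM in Torin D12, against 39.0, 40.3 and 50.1 CPM in DMSO D12 (−1.01 ± 0.14). In D6 it held 40.8, 43.5 and 34.1 CPM with Torin, against 37.0, 30.6 and 27.5 CPM with DMSO, which overlapped (0.32 ± 0.14, adjusted p = 0.0991). It passed there without the third Torin D6 library (0.40) or the first DMSO D6 library (0.44). Trp53inp1, the gene of a stress protein of apoptosis and autophagy, held 36.0, 34.8 and 35.9 CPM in Torin D12, against 65.3, 61.8 and 59.1 CPM in DMSO D12 (−0.80 ± 0.09), and 70.7, 63.7 and 72.5 CPM in Torin D6, against 81.3, 67.6 and 64.6 CPM in DMSO D6, which overlapped. With estradiol the pair passed in opposite directions. Pmaip1 held 12.3, 11.9 and 13.5 CPM with estradiol, against 11.8, 8.53 and 9.47 CPM with ethanol (0.34 ± 0.12), and Trp53inp1 held 91.9, 81.6 and 83.6 CPM with estradiol, against 105, 90.2 and 97.9 CPM with ethanol (−0.19 ± 0.06), where the groups overlapped. The Pmaip1 call was lost without the first, the second or the third estradiol or the second or the third ethanol library (0.24 to 0.38), and the Trp53inp1 call without the second or the third estradiol or the first or the third ethanol library (−0.18 to −0.13). DESeq2 also lost the Pmaip1 call.

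The size of the D6 change in Bbc3, Plk3 and Ei24 turned on the third Torin D6 library. Bbc3, the gene of the death promoter Puma, held 6.55, 4.85 and 41.8 CPM in Torin D6, against 3.69, 3.31 and 3.90 CPM in DMSO D6. Plk3, the gene of a polo-like kinase of the arrest group, held 1.53, 2.10 and 20.4 CPM in Torin D6, against 1.98, 2.15 and 1.81 CPM in DMSO D6. Ei24, the gene of a membrane protein of the endoplasmic reticulum, held 47.5, 48.9 and 187 CPM in Torin D6, against 39.8, 42.1 and 39.1 CPM in DMSO D6. In all 3 genes the third Torin library stood several-fold above the first and the second. The first and the second lay above every DMSO D6 library for Bbc3 and Ei24, by far less, and overlapped DMSO for Plk3. With all libraries Bbc3 and Ei24 rose (2.28 ± 0.65 and 1.23 ± 0.42) and Plk3 did not pass (2.01 ± 0.77, adjusted p = 0.0561), although it did without the first or second Torin D6 library (2.46 to 2.50). Without the third library Bbc3 stood at 0.64 and still passed (adjusted p = 0.0381), Ei24 at 0.24 (adjusted p = 0.0592) and Plk3 at −0.14 (adjusted p = 0.754). The Bbc3 call was also lost without the first or the second DMSO D6 library (2.22 to 2.29), and the Ei24 call without the third Torin D6 or the first, the second or the third DMSO D6 library (0.24 to 1.26). Of 7 other settings of the test, 2 lost the Bbc3 call and 3 the Ei24 call. None of the 3 was called in D12 or with estradiol.

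**Figure D4:**
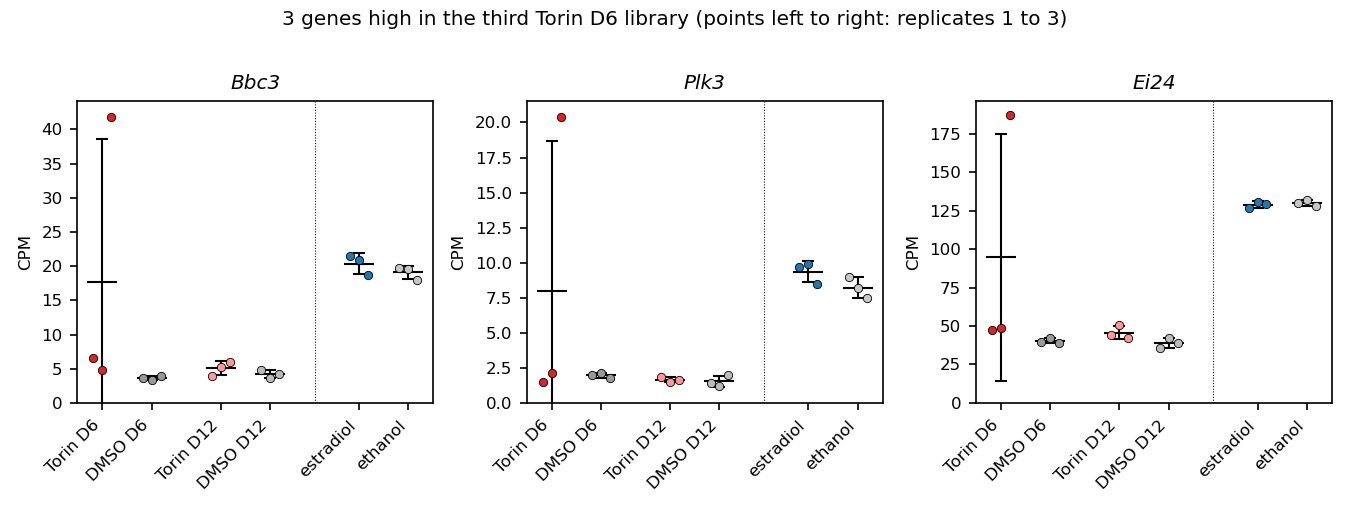
CPM (y axis) of Bbc3, Plk3 and Ei24 in every library (points, replicates 1 to 3 from left to right within a group), with the mean and SD of 3 libraries (bars); the dotted line separates experiments that were scaled separately. The third Torin D6 point lies several-fold above the first and second in each panel.

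The same library bears on smaller calls. Without it 16 of the 32 genes rose and 2 fell in D6. Perp, the gene of a desmosome protein, held 438, 385 and 606 CPM in Torin D6, against 341, 358 and 299 CPM in DMSO D6, where the highest value is again that of the third library. Its rise in D6 of 0.52 ± 0.15 became 0.30 without that library (adjusted p = 0.0595), while its fall in D12, at −0.69 ± 0.15, held in every alternative at the threshold of 0.05. The D6 call was lost without the third Torin D6 or the third DMSO D6 library (0.30 to 0.45), and in a fit of the compared groups alone. Phlda3, the gene of a repressor of Akt, averaged 319 ± 37.8 CPM in Torin D6 and 267 ± 5.26 CPM in DMSO D6 (mean ± SD, n = 3 each), and its rise of 0.26 ± 0.09 became 0.14 (adjusted p = 0.161). That call was lost without the third Torin D6 or the first, the second or the third DMSO D6 library (0.14 to 0.26), and in 2 of 7 other settings of the test. The lower effect on Phlda3 in D12 than in D6 (−0.45 ± 0.12) was lost without the first or the third Torin D6, the first, the second or the third DMSO D6, the first or the second Torin D12 or the first, the second or the third DMSO D12 library (−0.48 to −0.31). It was also lost in 2 of 6 other settings of the test. Tigar stood at 0.56 without the third Torin D6 library (adjusted p = 0.0896). Apaf1, the gene of the scaffold of the apoptosome, passed at 0.51 without it and averaged 24.5 ± 5.66 CPM in Torin D6 and 19 ± 2.19 CPM in DMSO D6 with it (0.37 ± 0.15, adjusted p = 0.0724). All 10 genes whose D6 rise held in every alternative at the threshold of 0.05 (Trp53, Mdm2, Ccng1, Psrc1, Zmat3, Bax, Aen, Tnfrsf10b, Eda2r and Ephx1) also rose without it.

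Pidd1 and Fas complete the death genes. Pidd1, the gene of a scaffold that activates an initiator caspase, was measured at low levels of 6.18 ± 1.66 CPM in Torin D6 and 3.56 ± 1.1 CPM in DMSO D6, with 515 and 269 counts in all (n = 3 each). It rose in D6 (0.80 ± 0.27) although the groups overlapped, and the call was lost without the first or the second Torin D6 or the second or the third DMSO D6 library (0.58 to 0.81). A fit of the compared groups alone lost that call too. With estradiol Pidd1 averaged 5.23 ± 0.184 CPM, against 3.59 ± 0.109 CPM with ethanol, a rise of 0.54 ± 0.14 that was lost in 1 of 6 other settings of the test, limma on the deposited signal. Fas, the gene of a death receptor, lay above DMSO in D6 and below it in D12 without overlap and passed in neither (0.20 ± 0.08 and −0.19 ± 0.08). The difference between its arms did pass, at −0.39 ± 0.11 (adjusted p = 0.0433), a call lost without the first or the second Torin D6, the first, the second or the third DMSO D6, the first, the second or the third Torin D12 or the first, the second or the third DMSO D12 library (−0.43 to −0.35). That call was also lost in 3 of 6 other settings of the test. With estradiol Fas averaged 14.5 ± 0.896 CPM and with ethanol 17.1 ± 1.64 CPM (SD, n = 3 each), a log2 fold change of −0.25 ± 0.09 in overlapping groups, a call that was lost without the first or the second estradiol or the first or the second ethanol library (−0.24 to −0.17). The estradiol call of Fas was also lost in 4 of 6 other settings of the test, DESeq2 and limma among them.

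No DNA repair gene was called with estradiol, where 0 of 5 passed in edgeR or DESeq2 and 0 had an unadjusted p under 0.05 in either. Of all tested genes 17.4% rose and 16.6% fell with estradiol. In D6, 1 repair gene rose and 1 fell, near the shares of all tested genes (19.8% and 19.3%). In D12, 2 fell, where 14.6% of all tested genes did. Ercc5, the gene of a nuclease of nucleotide excision repair, held 91.0, 93.9 and 71.4 CPM in Torin D6, against 66.2, 65.1 and 59.5 CPM in DMSO D6, all Torin libraries being higher (0.43 ± 0.12). In D12 it held 53.6, 45.2 and 50.6 CPM with Torin, against 58.7, 49.3 and 63.0 CPM with DMSO, which overlapped (−0.20 ± 0.12). The D6 call was lost without the first or the second Torin D6 or the third DMSO D6 library (0.35 to 0.38). The lower effect in D12 than in D6 (−0.62 ± 0.17) was lost without the first or the second Torin D6, the first, the second or the third DMSO D6, the first, the second or the third Torin D12 or the first or the third DMSO D12 library (−0.66 to −0.54). A replicate block lost it too. Polk, the gene of a polymerase that copies past damaged bases, held 24.7, 28.8 and 30.4 CPM in Torin D12, against 46.8, 40.9 and 42.2 CPM in DMSO D12, all lower (−0.63 ± 0.10). In D6 Polk held 54.6, 47.3 and 46.4 CPM with Torin, against 43.1, 44.8 and 38.8 CPM with DMSO, all slightly higher but not called (0.23 ± 0.10, adjusted p = 0.104).

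Ddb2, whose protein recognises ultraviolet damage, fell in both arms. It held 7.19, 3.64 and 5.92 CPM in Torin D6, against 10.8, 9.84 and 7.87 CPM in DMSO D6, and 4.64, 4.21 and 7.35 CPM in Torin D12, against 8.32, 12.3 and 10.6 CPM in DMSO D12. The groups did not overlap in either arm, but the values are low and spread widely, with log2 fold changes of −0.77 ± 0.28 and −0.94 ± 0.28. The D6 call was lost without the second Torin D6 or the first or the second DMSO D6 library (−0.74 to −0.54) and the D12 call without the first or the second Torin D12 or the second or the third DMSO D12 library (−0.93 to −0.79). The D6 call of Ddb2 was also lost in 2 of 7 other settings of the test. Rrm2b, the gene of the p53-inducible subunit of ribonucleotide reductase, held 29.8, 30.0 and 32.3 CPM in Torin D6, against 31.9, 33.3 and 36.1 CPM in DMSO D6, and 33.1, 28.8 and 30.7 CPM in Torin D12, against 31.2, 33.0 and 29.3 CPM in DMSO D12. Xpc, the gene of a damage sensor, averaged 39.3 ± 1.6 CPM in Torin D6 and 41.3 ± 1.58 CPM in DMSO D6, and 39.7 ± 3.53 CPM in Torin D12 and 41.2 ± 2.56 CPM in DMSO D12. Both genes overlapped DMSO in each arm and passed no test.

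With estradiol Ercc5 held 50.4, 50.5 and 55.6 CPM with estradiol, against 51.4, 46.7 and 49.5 CPM with ethanol, Ddb2 held 10.8, 12.0 and 10.3 CPM with estradiol, against 11.9, 12.4 and 12.0 CPM with ethanol, and Rrm2b held 19.7, 21.6 and 20.4 CPM with estradiol, against 20.6, 20.3 and 23.3 CPM with ethanol. All 3 overlapped. Polk averaged 36.4 ± 1.18 CPM with estradiol and 37.6 ± 5.07 CPM with ethanol, and Xpc averaged 33.3 ± 1.29 CPM with estradiol and 32.5 ± 1.15 CPM with ethanol (SD, n = 3 each).

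Among 5 metabolic targets there were 2 rises and 1 fall in D6, 3 falls in D12, and 1 rise and 1 fall with estradiol. Of all tested genes 19.8% rose and 19.3% fell in D6, 10.8% and 14.6% in D12, and 17.4% and 16.6% with estradiol. The single fall in D6 and the single rise and fall with estradiol are near these shares. Sesn1 fell in all 3 comparisons. Its protein, sestrin 1, restrains mTOR complex 1 when amino acids are scarce, and the gene is also a target of FOXO factors. It held 17.3, 17.8 and 15.3 CPM in Torin D6, against 43.1, 39.3 and 37.1 CPM in DMSO D6, 19.3, 21.0 and 22 CPM in Torin D12, against 41.4, 41.3 and 43.0 CPM in DMSO D12, and 18.4, 17.6 and 19.1 CPM with estradiol, against 23.4, 23 and 27.7 CPM with ethanol. Every treated library was below every control library of its comparison. The log2 fold changes were −1.25 ± 0.09 in D6 (adjusted p = 1.30e-06), −1.01 ± 0.09 in D12 (adjusted p = 1.71e-05) and −0.43 ± 0.08 with estradiol (adjusted p = 8.55e-04), each of which held in every alternative at the threshold of 0.05. The difference between the arms did not pass (0.24 ± 0.13, adjusted p = 0.302).

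Gdf15, the gene of a secreted stress hormone, fell in D12. It was rare, with 8, 16 and 26 counts in the Torin D12 libraries, against 77, 64 and 109 counts in the DMSO D12 libraries. These are 0.304, 0.607 and 0.910 CPM with Torin, against 2.84, 2.27 and 4.01 CPM with DMSO, and the groups did not overlap (−2.31 ± 0.35, adjusted p = 5.29e-04). In D6 it held 2.85, 1.99 and 2.28 CPM with Torin, against 2.29, 2.28 and 2.31 CPM with DMSO, which overlapped, and the difference between arms was −2.36 ± 0.47. With estradiol it held 1.80, 1.25 and 1.69 CPM, against 1.21, 1.09 and 1.55 CPM with ethanol, and was not called (adjusted p = 0.435).

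Ephx1, the gene of an enzyme that opens reactive epoxides, rose in D6 and fell in D12. It held 245, 266 and 220.2 CPM in Torin D6, against 169.97, 192 and 172 CPM in DMSO D6, and 152, 139 and 111 CPM in Torin D12, against 182, 168 and 207 CPM in DMSO D12. The sides were clear of each other in each arm (0.45 ± 0.12 and −0.47 ± 0.12), and the D12 call was lost without the third DMSO D12 library (−0.39). With estradiol Ephx1 held 173, 158 and 158 CPM, against 156, 154 and 155 CPM with ethanol, all slightly higher but not called (0.07 ± 0.05).

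Tigar, whose enzyme lowers a signal for glycolysis, held 3.12, 3.83 and 3.84 CPM in Torin D6, against 2.41, 2.42 and 2.20 CPM in DMSO D6, and 2.02, 2.50 and 2.31 CPM in Torin D12, against 2.03, 1.52 and 2.43 CPM in DMSO D12. It rose in D6 (0.62 ± 0.21), a call lost without the second or the third Torin D6 or the first, the second or the third DMSO D6 library (0.56 to 0.64), and overlapped DMSO in D12. The D6 call of Tigar was also lost in 3 of 7 other settings of the test. With estradiol it held 7.96, 10.2 and 10.3 CPM, against 5.71, 6.47 and 6.95 CPM with ethanol, a rise of 0.57 ± 0.13 that held in every alternative at the threshold of 0.05. Fdxr, the gene of a mitochondrial reductase of steroid and iron-sulfur synthesis, held 6.99, 7.25 and 6.84 CPM in Torin D6, against 9.06, 8.63 and 9.75 CPM in DMSO D6, and 10.5, 7.54 and 8.82 CPM in Torin D12, against 11.0, 8.21 and 10.4 CPM in DMSO D12. It held 7.87, 7.29 and 6.96 CPM with estradiol, against 8.70, 8.4 and 10.2 CPM with ethanol. All treated libraries were lower in D6 and with estradiol, but Fdxr passed in none of the comparisons (−0.38 ± 0.15 in D6, adjusted p = 0.0707, and −0.30 ± 0.11 with estradiol, adjusted p = 0.0538).

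Exons of Cdkn1a, Plk3, Ei24, Ddb2, Rrm2b and Tigar overlap a gene on the opposite strand and those of Bax and Ephx1 a gene on the same strand in the GENCODE annotation of GRCm38. The library kit keeps the strand, but whether it was used in counting is not given in the sources used here, so reads of such pairs cannot be told apart.

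The genes with a p53 site in the promoter window did not share one pattern. Cdkn1a and Ccng1 rose in D6 and fell in D12, Aen, Bbc3 and Tigar rose in D6 and were not called in D12, Trp53 rose in both arms and Sesn1 fell in both. With estradiol Cdkn1a, Ccng1, Aen, Tigar and Trp53 rose, Sesn1 fell and Bbc3 was not called.

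Other genes of the pathway were read beside the set. Of 27 tested further p53 targets, 8 rose and 8 fell in D6 (median log2 −0.15), none rose and 15 fell in D12 (−0.57; DESeq2 likewise found no rise), and 8 rose and 5 fell with estradiol (−0.01). Over all tested genes 19.8% rose and 19.3% fell in D6, 10.8% and 14.6% in D12, and 17.4% and 16.6% with estradiol. Lif, the gene of the cytokine that permits implantation, rose in D6, with 55.7 ± 5.89 CPM in Torin D6 and 12.9 ± 0.973 CPM in DMSO D6 (2.12 ± 0.14), and with estradiol, with 64.6 ± 2.71 CPM with estradiol and 38.8 ± 0.868 CPM with ethanol (0.73 ± 0.05). Ddit4, whose protein restrains mTOR complex 1, fell in D12 (−2.03 ± 0.11).

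Of 25 regulators of p53, 8 rose and 3 fell in D6, where 19.8% of all tested genes rose and 19.3% fell. In D12, 7 rose and 1 fell, where 10.8% and 14.6% did, and with estradiol 6 rose and 5 fell, where 17.4% and 16.6% did. Without the third DMSO D6 library 5 regulators rose in D6. In D12 the rises were 2 without the first DMSO D12, 3 without the second DMSO D12 or the second Torin D12, and 4 without the first Torin D12 library, and the falls were 2 when the third Torin D6 library was left out of the fit. Without the second estradiol or the second ethanol library 3 regulators fell with estradiol. Cdkn2a, the locus of Arf, which blocks Mdm2, and of the kinase inhibitor p16, held 39.2, 50.1 and 28.7 CPM in Torin D6, against 15.3, 17.6 and 18.6 CPM in DMSO D6, all higher (1.2 ± 0.19). The Torin effect on it was lower in D12 than in D6, with a difference of −1.25 ± 0.27. Counts per symbol do not separate its transcripts. Rpl5, the gene of a ribosomal protein that binds Mdm2, rose in D6 (0.57 ± 0.10) and D12 (0.49 ± 0.10). Rpl11, a partner of Rpl5 in that binding, fell with estradiol (−0.34 ± 0.04), as did Trp73, the gene of the relative p73 (−0.54 ± 0.06).

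The cell cycle genes that p53 is known to repress through p21 and the DREAM complex fell in both arms. Of 24, 22 fell in D6 (median log2 −1.07) and 22 in D12 (−1.22), none rose in either by edgeR or DESeq2, and with estradiol 2 rose and 2 fell, where 17.4% and 16.6% of all tested genes did. Falls over all tested genes were 19.3% in D6 and 14.6% in D12. Ccnb2, the gene of cyclin B2, stood at −1.62 in D6 and −1.69 in D12, and Cdkn1a stood at 0.29 and −1.15. Protein levels of p21 were not measured here, and the part of p53 or p21 in these falls was not tested. In the test of the arms against each other 1 of the 24, Aurka, was lower in D12 (−0.75 ± 0.20), a call lost in 9 of 19 alternatives, and none was higher by edgeR or DESeq2. Among 6 other inhibitors of cyclin-dependent kinases, 1 rose and 3 fell in D6 and 2 fell in D12, against 19.8% and 19.3% of all tested genes that rose and fell in D6 and 14.6% that fell in D12. The rise in D6 was lost without the first or the third Torin D6 or the first or the third DMSO D6 library. Cdkn2d stood at −2.0 in D6 and −1.57 in D12. With estradiol 3 of these fell, against 16.6% of all tested genes, Cdkn1b, the p27 gene, among them (−0.53 ± 0.04). Without the first estradiol or the second ethanol library 1 of them fell.

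**Figure D5:**
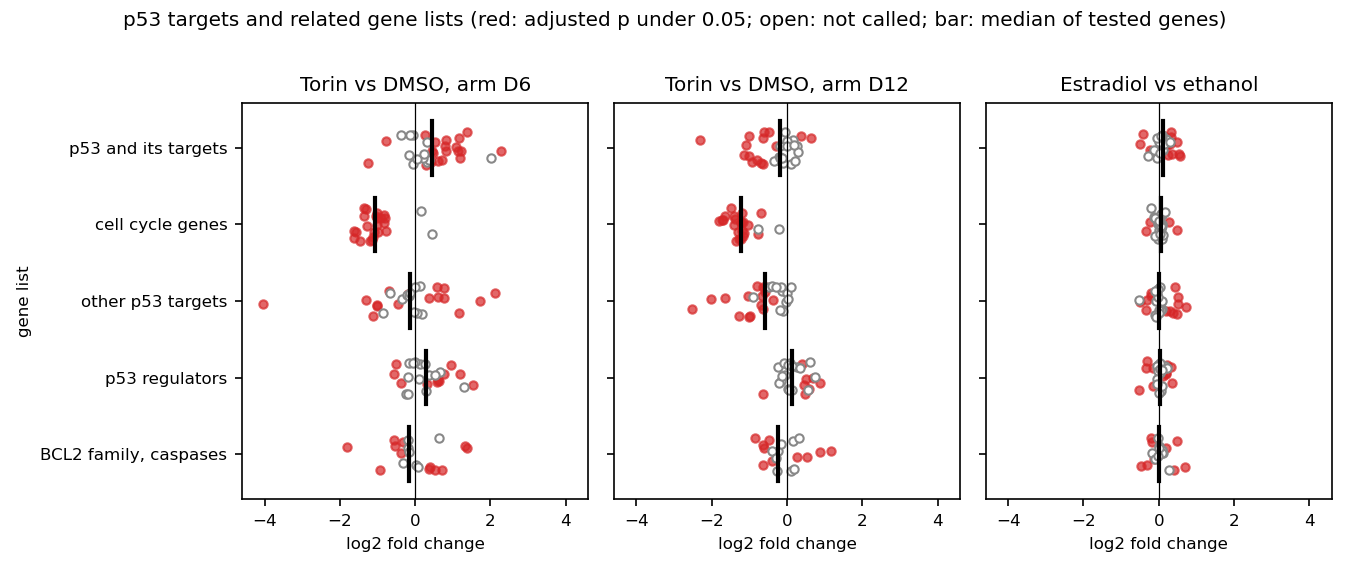
Log2 fold changes (x axis) of the 32 genes and of 4 related lists (y axis) in the 3 treatment comparisons; red points passed an adjusted p of 0.05, open points did not, and bars mark list medians. The cell cycle genes lie mostly left of 0 in both Torin arms (22 of 24 fell in each), whereas the p53 set has its median at 0.44 in D6 and −0.19 in D12.

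Among 19 tested genes of the BCL2 family and caspases, 6 rose and 6 fell in D6, 4 rose and 6 fell in D12, and 4 rose and 5 fell with estradiol. Over all tested genes 19.8% rose and 19.3% fell in D6, 10.8% and 14.6% in D12, and 17.4% and 16.6% with estradiol. The falls with estradiol were 2 without the first estradiol library and 3 without the second estradiol or the second ethanol library. Bid, the gene of a death promoter that activates Bax, rose in all 3 comparisons, at 1.33 ± 0.07, 0.88 ± 0.07 and 0.70 ± 0.05. Bcl2, the gene of the protein that holds Bax in check, also rose in all 3, at 1.37 ± 0.12, 1.16 ± 0.12 and 0.47 ± 0.05. Targets of ATF4, a stress factor that also drives some p53 targets, had 4 rises and 4 falls among 14 in D6, 1 rise and 8 falls in D12, and 3 rises and 5 falls with estradiol, beside the same shares of all tested genes. Phgdh, the first enzyme gene of serine synthesis, rose in D6 (1.80 ± 0.08), and Trib3, a gene of the stress response, fell there (−1.43 ± 0.11).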

How the data were processed

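Gene counts of 12 libraries (Torin experiment, whole numbers per gene symbol) and estimated counts of 6 libraries (estradiol experiment, per Ensembl gene) were used as deposited by the authors. The submitters' processing notes name kallisto, DESeq2, Trim Galore, cutadapt, FastQC, MultiQC and the build GRCm39, without roles. Signal tables in which the authors divided counts by scaling factors were deposited too and served for an alternative test with limma (version 3.58.1). Estimated counts were rounded (32.2% were not whole).

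Each experiment was fitted by itself with edgeR (version 4.0.16, R 4.3.3): TMM scaling, edgeR's filter on low counts, a group-means model, the quasi-likelihood test and Benjamini-Hochberg adjustment over all tested genes, called at 0.05. The Torin fit held all 4 groups, and the difference between arms was its interaction contrast. For CPM each count was divided by its library total after TMM scaling, with no correction for gene length; levels were not tested across experiments. A standard error is the log2 fold change divided by the root of the F statistic. Alternatives were DESeq2 (version 1.42.0), limma, other scaling and filters, a replicate block, the compared groups alone, a threshold of 0.01 and each library left out. "Every alternative at the threshold of 0.05" leaves out the threshold of 0.01. The script was tested on simulated data of 18112 and 15358 genes with 100 genes changed at each fold.

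The 32 genes and the gene lists were chosen with earlier results of these data known. Every library value is given for Trp53, Mdm2, Cdkn1a and, in each role, the 3 genes with the lowest p in each comparison; of other lists at most the 3 called genes with the lowest p per comparison are named. Bbc3, Plk3, Ei24 and Perp were given by library after their values were seen. Tigar stands under an older symbol in the estradiol table and was matched by its Ensembl identifier. RefSeq promoter windows (GRCm38.p6) differ in build from the authors' processing and were used for sequence alone. No pair of libraries agreed within sampling noise.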

Additional observations from a re-analysis of the deposited data

Results flagged for a closer look

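In the test of the arms against each other (adjusted p under 0.05 in edgeR's quasi-likelihood test), 19 of the 32 genes had a Torin effect that differed between D12 and D6, every one of them lower in D12. As log2 of the D12 effect minus the D6 effect, the core loop gene Mdm2 stood at −1.0. The arrest genes stood at −1.43 (Cdkn1a), −1.34 (Zmat3), −1.32 (Ccng1), −1.12 (Psrc1) and −0.92 (Btg2). The death genes stood at −1.66 (Eda2r), −1.32 (Pmaip1), −1.2 (Perp), −1.17 (Tnfrsf10b), −1.01 (Aen), −0.76 (Trp53inp1), −0.46 (Bax), −0.45 (Phlda3) and −0.39 (Fas). The repair genes stood at −0.86 (Polk) and −0.62 (Ercc5), and the metabolic genes at −2.36 (Gdf15) and −0.93 (Ephx1). Of the 19 calls, 15 held in every alternative at the threshold of 0.05, the exceptions being Bax, Phlda3, Fas and Ercc5. Marker sums moved with the arms. The 9 luminal markers summed to 8183 to 9751 CPM in Torin D6 and 5993 to 7198 in DMSO D6, and to 5059 to 6244 in Torin D12 and 7171 to 7643 in DMSO D12, so the Torin libraries lay wholly above DMSO in D6 and wholly below it in D12. Of the 9, 3 rose and 5 fell in D6, and 6 fell in D12. The basal markers summed to 1622 to 2053 CPM in Torin D6 and 2364 to 2772 in DMSO D6, and to 1720 to 2277 in Torin D12 and 3210 to 3402 in DMSO D12. Of the 7 basal markers 2 rose and 1 fell in D6, and 2 rose and 3 fell in D12. The fibroblast markers summed to 284 to 317 CPM in Torin D6 and 894 to 1249 in DMSO D6, and to 723 to 1032 in Torin D12 and 898 to 1039 in DMSO D12, and the part of these shifts in the differences was not tested.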

How the results depend on the processing

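The counts of called genes were recomputed under other settings and with each library left out. For the 18 rises and 2 falls in D6, an adjusted p under 0.01 gave 9 and 1, a fit of the compared groups alone gave 12 and 1, and leaving out single libraries gave 11 to 16 rises (11 without the third DMSO D6 library) and 1 to 2 falls. For the 2 rises and 13 falls in D12, an adjusted p under 0.01 gave 1 and 10, leaving out single libraries gave 1 to 2 and 10 to 14, and the fit without the third Torin D6 library, chosen after seeing the data, gave 4 and 14. The 19 lower effects in D12 than in D6 became 15 at an adjusted p under 0.01 and 15 to 19 with single libraries left out. For the 13 rises and 4 falls with estradiol, an adjusted p under 0.01 gave 9 and 2, and leaving out single libraries gave 10 to 13 and 2 to 3. With the replicate number as a block the counts were 15 and 1 in D6, 2 and 12 in D12, 17 lower for the difference, and 12 and 3 with estradiol. DESeq2 lost 1 of the called genes in D6 and 4 with estradiol. Limma on the deposited signal lost 4 in D6, 1 in D12, 2 for the difference and 5 with estradiol. Libraries of the same number did not deviate together (correlations of −0.094 to 0.093 in the Torin and −0.027 to −0.010 in the estradiol experiment). With 3 libraries per group this cannot decide whether the numbers pair samples, and no label says so. Plk3 changed sign without the third Torin D6 library, at −0.14 in D6 and 0.28 for the difference, and ranged over −0.14 to 2.50 and −2.36 to 0.28 with single libraries left out. The cause of these changes was not tested. In simulated counts the test recovered 46% of 2-fold changes in D6, 49% in D12, 18% for the difference and 85% with estradiol, and 18%, 15%, 2% and 69% of 1.5-fold changes, so small changes in the Torin experiment can go uncalled. The changed genes were drawn at random from all tested genes, 100 at each fold. In the real data far more genes were called (19.8% rose and 19.3% fell in D6). The cut on p at the same adjusted threshold is looser there, so these percentages do not give the share of real changes that was recovered. Among unchanged genes there were 5 false calls in D6, 1 in D12, 1 for the difference and 16 with estradiol.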

Other observations

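The genes raised in the third Torin D6 library were compared with their levels in the estradiol experiment, a comparison chosen after the data were seen. Over all gene rows, 412 held at least 5 CPM in it and were at least 4-fold above both other Torin D6 libraries, Bbc3 and Plk3 among them. Genes matched to the estradiol table were kept where the mean CPM there plus that of the other 11 libraries of the Torin experiment was at least 1. Of the 412 genes, 377 were matched and kept, and 364 (96.6%) had a mean CPM in the estradiol experiment at least 2-fold that of those 11 libraries. Of all 14170 genes matched and kept, which had no floor of 5 CPM, 2668 (18.8%) did. The cause of the raised genes was not tested.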
